A study of Mus musculus with 9 samples.

Results

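The EphA receptors are 1 of the 2 classes of Eph receptor tyrosine kinases. Their genes were chosen by name: Epha1, Epha2, Epha3, Epha4, Epha5, Epha6, Epha7, Epha8 and Epha10, 9 of the 46078 genes in the count tables. The levels of these 9 mRNAs were followed over 2 days of differentiation of EGFP-SSCs, a mouse spermatogonial stem cell line that carries green fluorescent protein and is labelled WT, and Epha2 was contrasted with Epha4. Poly-A RNA was sequenced from 9 libraries, with 3 biological replicates for each time point (0 h, 24 h and 48 h). The 0 h cells were in normal culture on mouse embryonic fibroblasts exposed to mitomycin C, in a StemPro-34 medium that held GDNF, human basic fibroblast growth factor, mouse epidermal growth factor, β-estradiol, progesterone and 1% FBS. The 24 h and 48 h cells had been mixed in equal parts with testicular somatic cells of busulfan-exposed mice aged 3 to 7 days, and were kept in α-MEM with KSR, BMP-4/7, retinoic acid, activin A, testosterone, FSH and BPE before EGFP-positive cells were sorted. The change of medium and the somatic cells came together, so their effects cannot be told apart. The labels name the sort for the 24 h and 48 h cells and not for the 0 h cells. The study's text says that SSCs from different culture stages were sorted by flow cytometry, without naming 0 h. A difference in sorting, if there was one, cannot be told apart from time either. All libraries came from a single cell line, and nothing in the labels says whether the replicates were separate cultures, so p-values measure only the spread between these libraries.

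Eph receptors sit in the plasma membrane and are bound by ephrins on the surface of neighbouring cells. EphA receptors bind mainly the lipid-anchored ephrin-A ligands, and EphB receptors bind mainly the transmembrane ephrin-B ligands. Binding sends a signal into the receptor cell and also back into the ephrin cell, and the outcome is often repulsion, detachment or the sorting of cells into separate groups. In the testis, EPHA2 protein has been used as a surface marker of spermatogonia with stem cell activity, while Epha4 is best known from axon guidance and binds ligands of both ephrin classes.

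Library totals ran from 16825251 to 22201892 counts, and all 9 pairs of replicates differed by more than counting noise. Of the 9 germ cell markers examined, all had more than 3 counts in every library, and their summed level was 1800 to 2822 CPM (counts scaled to the library's size) at 0 h, 3271 to 3528 at 24 h and 2634 to 2904 after 48 h. Members of this list went different ways. Mean CPM at the 3 times was 2.58, 913 and 486 for Stra8 and 8.47, 568 and 330 for Kit. It was 230, 36.4 and 18.0 for Gfra1, and 357, 360 and 382 for Ddx4. Markers of other cells moved with the time points. The summed level of 7 stromal and feeder markers was 265 to 362 CPM at 0 h, 2117 to 2447 at 24 h and 2835 to 3129 after 48 h, that of 6 myoid markers was 13.7 to 15.6, 146 to 208 and 263 to 322 CPM, and that of 8 Sertoli markers was 18.9 to 20.0, 40.4 to 58.3 and 52.5 to 53.9 CPM. The 6 Leydig markers summed to 4.48 to 6.80, 24.6 to 38.6 and 25.3 to 32.6 CPM, with 1 to 4 of them at 3 counts or fewer in a library. The 6 endothelial markers summed to 47.5 to 52.4 CPM in the 0 h libraries and 18.9 to 22.3 CPM after 48 h. For the 6 macrophage markers these sums were 15.5 to 18.3 and 6.34 to 9.22 CPM. In these libraries, 1 or 2 of the endothelial and 2 to 4 of the macrophage markers had 3 counts or fewer. Both sums rested mostly on a few genes. Mean CPM at 0 h and 48 h was 28.7 and 9.73 for Vwf, 15.8 and 3.01 for Pecam1, and 15.7 and 5.46 for Cd68. Members such as Tek (1.42 and 4.11), Csf1r (0.295 and 0.653) and Lyz2 (0.597 and 1.49) were higher after 48 h. The part of the other cell types in the EphA results was not tested. In bulk RNA, fewer cells of a type and less RNA per cell cannot be told apart.

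The promoters of Epha2 and Epha4, the contrasted pair, and of Epha1 and Epha8, the other members that changed from 0 h at both later times, are shown so that the reader can compare them. Each run is the 250 bases before the RefSeq transcript start (GRCm38.p6), 5′ to 3′ on the gene's strand. Capitals mark GGGCGG or its reverse complement CCGCCC, the core of the GC box, and matches may overlap.
Epha2, chr4:141300971-141301220, plus strand: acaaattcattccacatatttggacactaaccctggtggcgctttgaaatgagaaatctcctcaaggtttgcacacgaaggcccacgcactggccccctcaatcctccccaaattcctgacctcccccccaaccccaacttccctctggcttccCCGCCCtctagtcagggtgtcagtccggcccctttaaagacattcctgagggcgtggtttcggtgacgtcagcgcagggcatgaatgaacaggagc
Epha4, chr1:77515089-77515338, minus strand: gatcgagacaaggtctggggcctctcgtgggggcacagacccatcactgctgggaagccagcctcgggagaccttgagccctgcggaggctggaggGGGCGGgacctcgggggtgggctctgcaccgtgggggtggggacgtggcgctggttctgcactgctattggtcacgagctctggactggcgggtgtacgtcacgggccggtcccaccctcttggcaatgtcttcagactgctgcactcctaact
Epha1, chr6:42373269-42373518, minus strand: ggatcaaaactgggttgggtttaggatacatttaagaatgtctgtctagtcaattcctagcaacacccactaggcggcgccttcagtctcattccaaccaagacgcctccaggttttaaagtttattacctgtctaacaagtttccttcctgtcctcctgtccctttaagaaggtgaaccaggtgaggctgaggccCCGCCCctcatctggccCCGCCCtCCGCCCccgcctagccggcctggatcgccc
Epha8, chr4:136956817-136957066, minus strand: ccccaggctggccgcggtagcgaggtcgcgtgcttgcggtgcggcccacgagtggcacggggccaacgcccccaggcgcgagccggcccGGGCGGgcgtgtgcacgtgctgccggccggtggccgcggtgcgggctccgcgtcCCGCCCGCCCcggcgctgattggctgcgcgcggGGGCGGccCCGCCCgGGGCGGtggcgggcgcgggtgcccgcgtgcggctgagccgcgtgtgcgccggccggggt
The Epha2 window held 1 match, 96 bases before the start, and the Epha4 window held 1, 154 bases before it. Epha1 held 3 matches and Epha8 held 6, where 32.9% of 27018 RefSeq promoters of the same length held at least 1. The windows also differed in base composition. Epha2 and Epha1 had 9 CpG dinucleotides each and a GC content of 55.6% and 54.4%, close to the medians of 6 CpG and 52% over all promoters. Epha4 had 14 CpG and 66% GC, and Epha8 had 46 CpG and 84% GC, more CpG than 99.7% of promoters. Neither CGGAAG, an ETS-type core that 13.8% of promoters held on either strand, nor TATAAA, the TATA box of 13%, nor TGACTCA, the AP-1 site of 4.43%, was in any of the 4 windows. The E-box CACGTG, held by 6.05% of promoters, was in the Epha8 window alone. A match in these letters is no evidence of binding, and the absence of one says nothing of a factor.

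Before differentiation, the EphA transcripts were mostly Epha2. Levels were compared between genes as FPKM, the CPM divided by the length of the gene's merged exons in kilobases. At 0 h, the mean FPKM was 85.9 for Epha2, 15.0 for Epha1, 5.19 for Epha8, 0.678 for Epha4 and 0.398 for Epha7, and none of these overlapped its neighbour in the order. The remaining receptors, Epha10, Epha6, Epha5 and Epha3, had means of 0.0105 to 0.0460 FPKM, and neighbours among them overlapped. At 24 h the order had changed. Epha8 led with 13.8 FPKM, followed by Epha2 with 7.15 and Epha1 with 4.67, each apart from the next, while Epha4 with 0.541 and Epha7 with 0.468 overlapped. At 48 h, Epha8 stood at 12.7 FPKM and Epha4 at 0.646, apart from their neighbours, whereas Epha2 with 3.62 and Epha1 with 3.03 overlapped. Epha3 with 0.135 and Epha6 with 0.111 also overlapped, and were above Epha10 and Epha5.

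The summed EphA level fell from 107 ± 15.7 FPKM (SD, n = 3) at 0 h to 26.8 ± 1.18 at 24 h and 20.8 ± 1.63 after 48 h, as a description of the 9 genes. Within that sum, Epha2 made up 80.1% ± 1.30 at 0 h, 26.7% ± 2.04 at 24 h and 17.4% ± 1.02 after 48 h. Epha8, a receptor best known from the developing brain, made up 4.81% ± 0.292, 51.2% ± 2.72 and 61.2% ± 0.171. The leading EphA transcript was therefore Epha2 in the 3 libraries of 0 h and Epha8 in the 6 later ones. The share of Epha1 stayed between 13.1% and 18.8% in the 9 libraries although its level fell, and Epha4 went from 0.645% ± 0.130 to 2.01% ± 0.315 and 3.11% ± 0.0984.

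**Figure D1:**
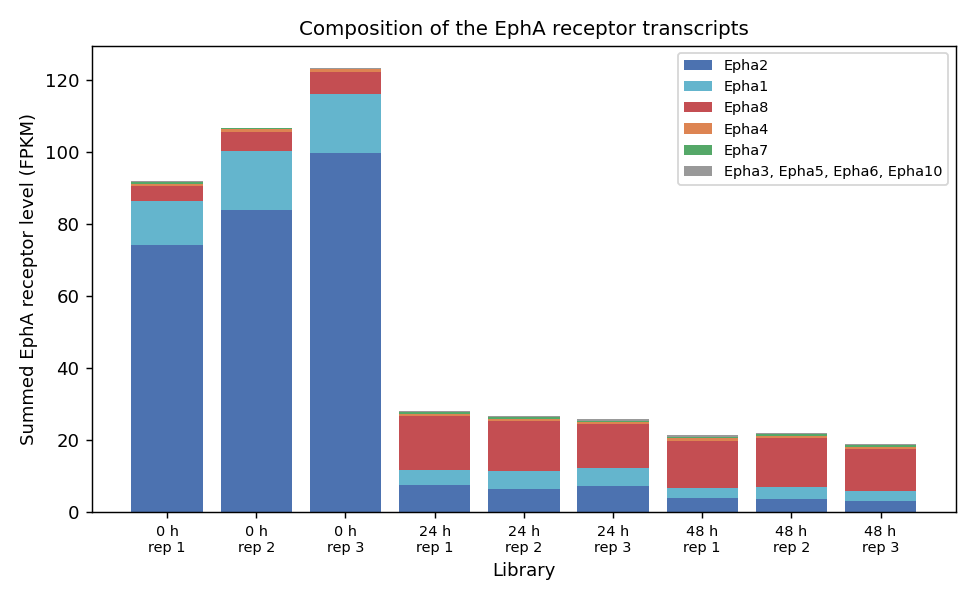
Summed EphA receptor level in FPKM (y axis, linear) in each of the 9 libraries (x axis), with each bar divided by receptor. The bars stand at 91.9 to 123 FPKM at 0 h and are mostly Epha2, and at 18.9 to 28.1 FPKM at 24 h and 48 h, where Epha8 is the largest segment.

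For each pair of time points, genes were tested across the whole table with edgeR's quasi-likelihood test, and a gene was called at a Benjamini-Hochberg adjusted p of up to 0.05. From 0 h to 24 h, 1 EphA receptor was called higher and 2 lower, 4 were tested and not called, and Epha3 and Epha6 had too few counts to be tested. Over all genes in that comparison, 25.5% of 17592 were called, 11.4% higher and 14.2% lower. From 0 h to 48 h, 2 were called higher and 2 lower of 6 tested, where 31.6% of 17755 genes were called, 13.0% higher and 18.5% lower. One of the higher calls was Epha3, which was tested only because of its level at 48 h, and with at least 10 counts required in every library 3 EphA receptors were called. Between 24 h and 48 h all 9 were tested, and 1 was called higher and 3 lower, where 21.3% of 17499 genes were called, 8.61% higher and 12.7% lower. Of those called, Epha10 passed the filter through the 24 h libraries alone, and Epha3 would not have passed on its 24 h libraries. With at least 10 counts required in every library, 2 EphA receptors were called. The median log2 fold change of the tested EphA receptors was 0.25, 0.09 and −0.13 in the 3 comparisons, beside medians no farther than 0.02 from 0 over all genes. Against 0 h, Epha1 and Epha2 were called lower and Epha8 higher at both times. Between 24 h and 48 h the calls of Epha1 and Epha2, both lower, held in all 14 alternatives, while those of Epha3 (higher) and Epha10 (lower) did not. The first and second comparisons share the 0 h libraries. Scaling by library size alone in place of TMM moved the median of all genes by 0.11 in both comparisons with 0 h, and the higher genes then made up 57.1% and 52.8% of the calls, against 44.5% and 41.2% with TMM. Values below are with TMM.

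**Figure D2:**
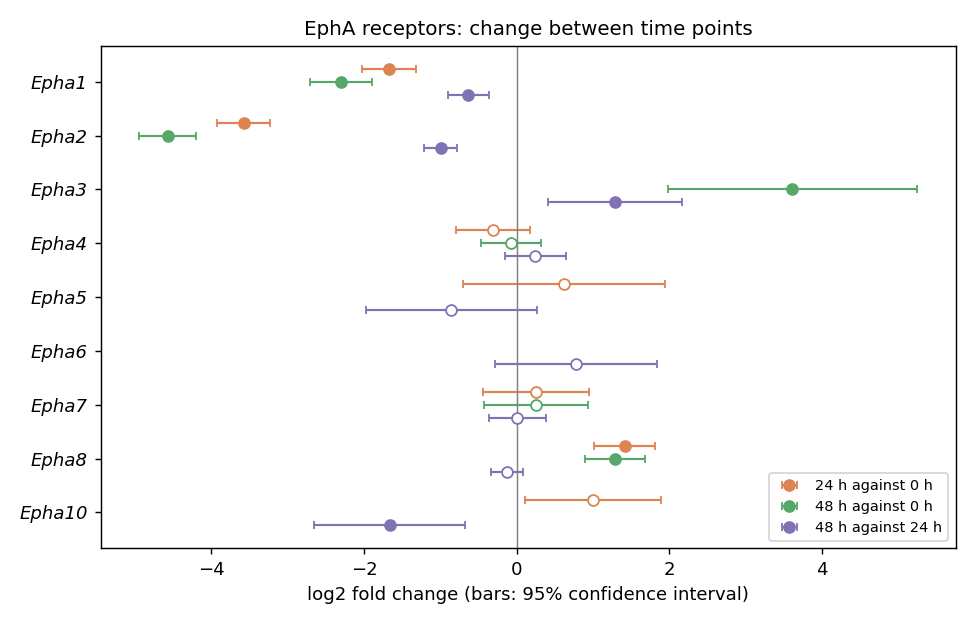
Log2 fold change of each EphA receptor (x axis) in the 3 comparisons of time points, from edgeR, with 95% confidence intervals as bars. Filled points were called, open points were not, and a missing point was not tested. Epha2 lies farthest to the left at −4.57 for 48 h against 0 h, while the intervals of Epha4 include 0 in all 3 comparisons.

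Epha2 (ENSMUSG00000006445, chr4:141301240-141329384, plus strand) showed the largest fall from 0 h of the EphA receptors tested. Its level was 347, 392 and 466 CPM in the 0 h libraries, 35.3, 30.5 and 34.4 CPM at 24 h, and 18.5, 17.0 and 15.3 CPM at 48 h. The 3 groups did not overlap, and most of the fall had taken place by 24 h. Epha2 was 11.9-fold lower at 24 h than at 0 h (log2 fold change −3.57, SE 0.15, edgeR adjusted p = 1.57e-05) and 23.8-fold lower at 48 h (−4.57, SE 0.16, edgeR adjusted p = 6.39e-06). These were the 203rd largest change of 17592 genes and the 142nd of 17755. Between 24 h and 48 h it fell again, by 0.99 on the log2 scale (SE 0.10, edgeR adjusted p = 0.000295). The 3 calls held in all 14 alternatives of processing.

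Epha4 (ENSMUSG00000026235, chr1:77367185-77515088, minus strand) was low throughout and was not called in any comparison. It had 93, 108 and 105 counts at 0 h, 95, 92 and 71 at 24 h, and 101, 124 and 97 after 48 h. In CPM this was 5.46 ± 0.299, 4.35 ± 0.776 and 5.20 ± 0.251 (SD, n = 3). The 24 h libraries, at 3.47 to 4.92 CPM, lay below the 0 h libraries, at 5.23 to 5.80, but the difference did not pass the test (log2 fold change −0.31, 95% interval −0.80 to 0.17, edgeR adjusted p = 0.327). The 48 h and 0 h libraries overlapped. There the log2 fold change was −0.07 with an interval of −0.46 to 0.32 (edgeR adjusted p = 0.787), and its sign turned with scaling by library size alone (0.04). From 24 h to 48 h it was 0.25 with an interval of −0.16 to 0.65 (edgeR adjusted p = 0.355). A change of 2-fold or more, 1 on the log2 scale, lay outside each of these intervals.

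The contrast of both receptors was measured directly as their ratio within a library, which needs no scaling between libraries. The log2 ratio of Epha2 to Epha4 counts, with 0.5 added to each, was 5.90, 6.19 and 6.47 at 0 h, 2.91, 2.62 and 3.30 at 24 h, and 1.80, 1.65 and 1.63 after 48 h. The 3 groups were apart from each other. The group means differed by −3.24 (SE 0.26) between 24 h and 0 h, by −4.49 (SE 0.17) between 48 h and 0 h and by −1.25 (SE 0.20) between 48 h and 24 h. Each difference had p = 0.1 in a two-sided exact permutation test, which is the smallest p that 3 against 3 libraries can give, so this test could not reach 0.05 here; adjusted over the 3 comparisons, p was 0.1. Per length, Epha2 exceeded Epha4 by 128 ± 25.1-fold (SD, n = 3) at 0 h, 13.6 ± 3.24-fold at 24 h and 5.60 ± 0.355-fold after 48 h. Epha2 thus remained the more abundant of the pair in every library.

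**Figure D3:**
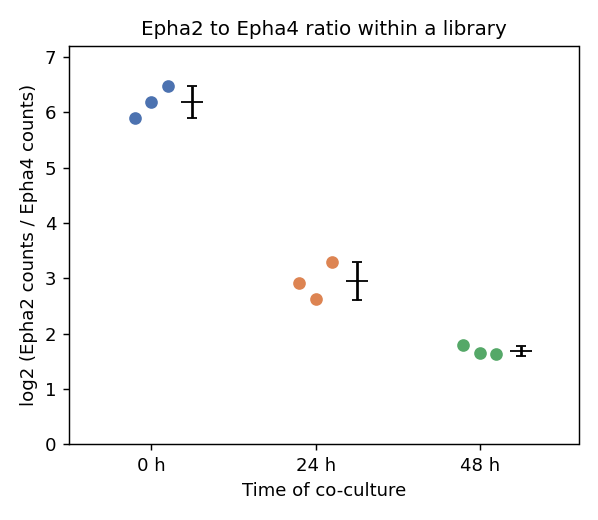
Log2 ratio of Epha2 to Epha4 counts (y axis) in each library by time of co-culture (x axis), with the group mean and SD beside the points. The ratio lies at 5.90 to 6.47 at 0 h, 2.62 to 3.30 at 24 h and 1.63 to 1.80 after 48 h.

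Epha1 (ENSMUSG00000029859, chr6:42358487-42373268, minus strand), the founding member of the Eph family, fell alongside Epha2 but less steeply. Its level was 47.4, 64.5 and 64.6 CPM at 0 h, 16.8, 19.3 and 19.0 at 24 h, and 11.1, 13.7 and 10.9 after 48 h. No library of one group reached into another. The log2 fold change was −1.67 at 24 h (SE 0.15, edgeR adjusted p = 0.000286) and −2.30 at 48 h (SE 0.17, edgeR adjusted p = 0.000102) against 0 h, and −0.63 from 24 h to 48 h (SE 0.12, edgeR adjusted p = 0.00612), called in all 14 alternatives each. Of the Epha1 exonic bases, 6.01% overlap Zyx on the opposite strand, and whether the counting used strand is not given in the sources used here, so reads there cannot be told apart.

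Epha8 (ENSMUSG00000028661, chr4:136929419-136956816, minus strand) went the opposite way. It had 19.4, 24.9 and 29.1 CPM at 0 h, 70.4, 65.6 and 58.4 at 24 h, and 61.6, 63.6 and 54.4 after 48 h. Every later library was above every 0 h library, while the 24 h and 48 h libraries overlapped. Epha8 rose 2.67-fold by 24 h (log2 fold change 1.42, SE 0.17, edgeR adjusted p = 0.00106) and was 2.44-fold above 0 h at 48 h (1.29, SE 0.17, edgeR adjusted p = 0.00118), both called in all 14 alternatives. Between 24 h and 48 h its log2 fold change was −0.13, with an interval of −0.33 to 0.08 (edgeR adjusted p = 0.362), and 0.11 after correction for GC content and length.

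**Figure D4:**
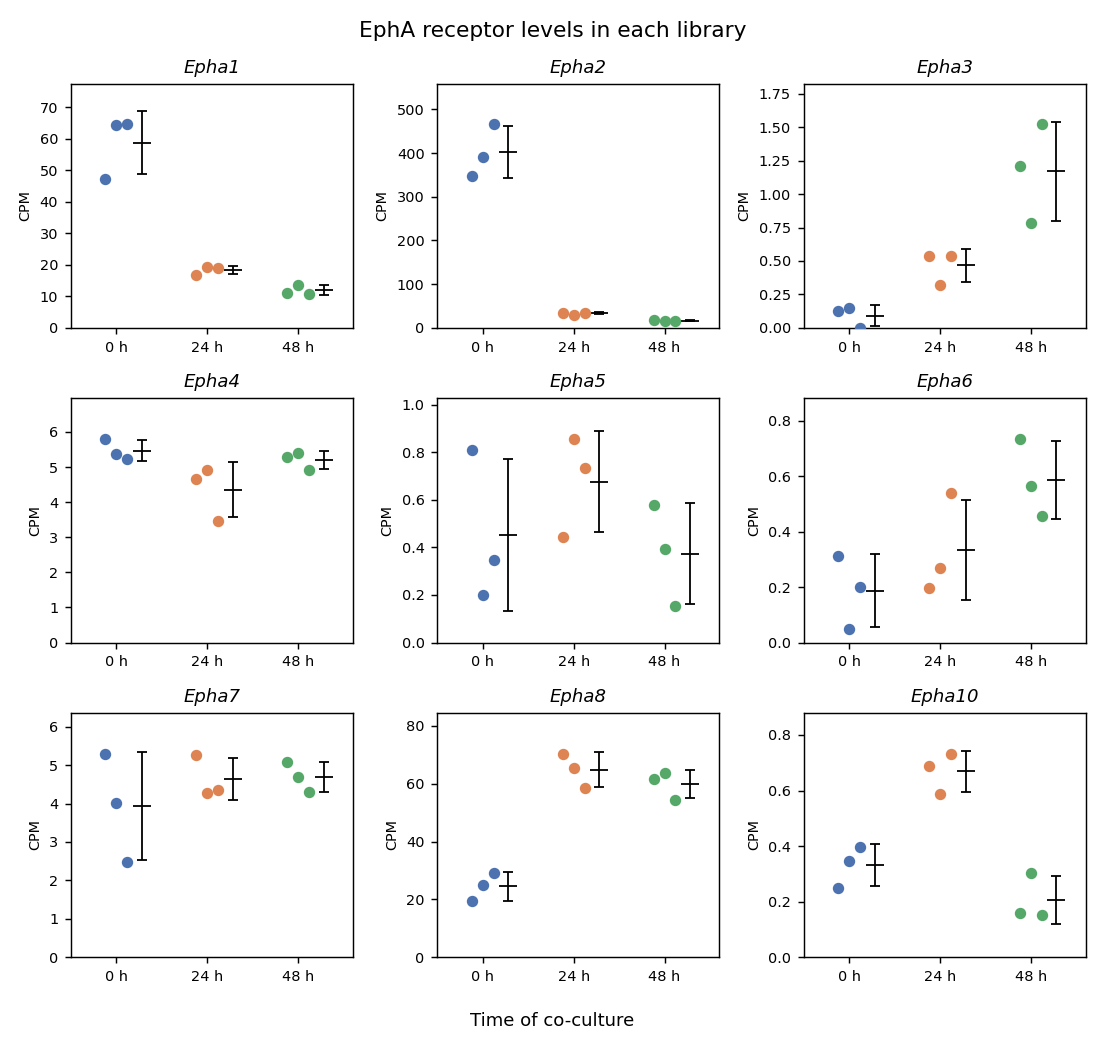
CPM of each EphA receptor (y axis, linear, a scale of its own in each panel) in the 9 libraries by time of co-culture (x axis). Points are libraries, and the bar beside them is the group mean and SD. Epha1 and Epha2 drop after 0 h, Epha8 and Epha3 are higher at 24 h and 48 h than at 0 h, and Epha4 stays between 3.47 and 5.80 CPM.

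Epha7 (ENSMUSG00000028289, chr4:28813131-28967499, plus strand), a receptor of the developing nervous system, stood at a level like that of Epha4. It had 85, 81 and 50 counts at 0 h, 107, 80 and 89 at 24 h, and 97, 108 and 85 after 48 h, and the libraries of the 3 times overlapped. The log2 fold change was 0.25 at 24 h (interval −0.45 to 0.95, edgeR adjusted p = 0.603) and 0.26 at 48 h (interval −0.43 to 0.94, edgeR adjusted p = 0.556) against 0 h. It turned to −0.11 at 48 h with the GC and length correction. From 24 h to 48 h it was 0.01.

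Epha3 (ENSMUSG00000052504, chr16:63543534-63864175, minus strand), a receptor studied in axon guidance, was at the limit of detection in the 0 h cells. It had 2, 3 and 0 counts at 0 h, 11, 6 and 11 at 24 h, and 23, 18 and 30 after 48 h. The 3 groups were apart, in the order of the time points. With 3 counts per library taken as the floor, the 24 h mean was at least 2.88-fold higher than the 0 h mean, and the 48 h mean at least 7.23-fold higher. Epha3 passed the filter on low counts only through the 48 h libraries, where it was called higher than at 0 h (edgeR adjusted p = 0.00697, and an adjusted p of 0.000267 to 0.0368 over its 13 alternatives, DESeq2 included). Without the filter, the 24 h libraries gave an edgeR adjusted p of 0.0983 against 0 h. Its rise from 24 h to 48 h (log2 fold change 1.29, SE 0.39, edgeR adjusted p = 0.0434) was lost in 8 of 12 alternatives, among them those that left out any single 24 h library or the first or the third 48 h library, with edgeR adjusted p of 0.0827 to 0.158. The summed levels of the stromal, myoid, Sertoli and Leydig markers given above were also higher at both later times than at 0 h. From 24 h to 48 h the Sertoli and Leydig sums overlapped. Not every marker rose: the mean of Sox9 was 11.7, 6.64 and 7.91 CPM at 0 h, 24 h and 48 h, and that of Rhox5 2.23, 0.368 and 0.192. The part of these cells in the rise of Epha3 was not tested.

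The last 3 receptors had at most 16 counts in any library. Epha10 (ENSMUSG00000028876, chr4:124880899-124917800, plus strand), which lacks kinase activity, had 4, 7 and 8 counts at 0 h, 14, 11 and 15 at 24 h, and 3, 7 and 3 after 48 h, so that its 24 h libraries lay above both other groups. Its log2 fold change was 1.00 from 0 h to 24 h (SE 0.38, edgeR adjusted p = 0.0981) and −1.67 from 24 h to 48 h (SE 0.44, edgeR adjusted p = 0.026), where it passed the filter through the 24 h libraries alone. The second of these, the 1 that was called, was lost in 8 of 12 alternatives, leaving out any single 24 h library or the first or the third 48 h library included, with edgeR adjusted p of 0.0585 to 0.105. Epha6 (ENSMUSG00000055540, chr16:59653483-60605531, minus strand) had 5, 1 and 4 counts at 0 h, 4, 5 and 11 at 24 h, and 14, 13 and 9 after 48 h. The 48 h libraries were above the 0 h libraries, and without the filter the log2 fold change of 1.65 had an edgeR adjusted p of 0.136. Epha5 (ENSMUSG00000029245, chr5:84054761-84417382, minus strand) ranged from 3 to 16 counts and overlapped in every comparison. Both are best known from neurons. With the longest transcript as gene length, the order of the 5 leading receptors was the same at each time, while the FPKM of Epha5 was 2.28-fold higher and the order among Epha3, Epha5, Epha6 and Epha10 changed. Differences in these genes under the size of their intervals were not detectable at this depth.

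Genes were then picked for a profile over the 9 libraries most like that of Epha2, so their like fall follows from the choice. Likeness was the root mean square difference between log2 CPM profiles, each centred on its own mean, over 9854 protein-coding genes with a mean of at least 10 CPM. The nearest were Tmem132e (0.148), Exoc3l (0.153), Etv4 (0.173), Tubg2 (0.208) and Tmc6 (0.223), with Pearson's r of 0.994 to 0.999 across libraries that share their time points. Etv4, an ETS-family transcription factor, had a mean of 242 CPM at 0 h, 16.3 at 24 h and 9.17 after 48 h, and Tmem132e had 247, 18.7 and 10.8. For Epha4, with 9855 genes compared, the nearest included Trrap (0.0763), Nedd4l (0.0925), Scaf4 (0.0929) and Disp3 (0.0938), with r of 0.886 to 0.924. Trrap, a scaffold of histone acetyltransferase complexes, had a mean of 438 CPM at 0 h, 357 at 24 h and 425 after 48 h. These neighbours of Epha4 had their lowest mean at 24 h as it did, which follows from how they were picked. The floor of 10 CPM kept out genes at the level of Epha4.

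The EphB receptors, the sister class, were likewise divided. Of 5, 2 were called higher and 3 lower at 24 h, 1 higher and 3 lower at 48 h against 0 h, and 3 lower from 24 h to 48 h, where 25.5%, 31.6% and 21.3% of all genes were called in either direction. The median log2 fold change was −0.57, −0.93 and −0.35. Ephb1 fell most, from 72.8 to 84.0 CPM at 0 h to 14.6 to 14.9 at 24 h and 5.82 to 7.85 after 48 h (log2 fold change −3.49 against 0 h, SE 0.15, edgeR adjusted p = 1.39e-05). Ephb3 fell by 2.40 on the log2 scale by 48 h, and Ephb2 by 0.93. The call of Ephb2 at 24 h was lost in 4 of 14 alternatives, among them without 0 h replicate 2 or 24 h replicate 2 or 3, with edgeR adjusted p of 0.055 to 0.0642. Its call from 24 h to 48 h was also lost in 4, among them without 24 h replicate 1 or 48 h replicate 1 or 3, with edgeR adjusted p of 0.0563 to 0.11. Ephb6, which like Epha10 lacks kinase activity, rose to 25.6 to 28.7 CPM at 48 h from 6.92 to 10.4 at 0 h (log2 fold change 1.62, SE 0.17, edgeR adjusted p = 0.000448). Ephb4, known from the separation of veins and arteries, rose and then fell. It was 65.0 to 88.6 CPM at 0 h, 129 to 140 at 24 h and 68.3 to 76.6 after 48 h, a rise of 0.81 (edgeR adjusted p = 0.0042) and then a fall of 0.90 on the log2 scale (edgeR adjusted p = 0.000131). Ephb2 lies 93430 bases from Epha8 on chromosome 4 and Ephb6 lies 737977 bases from Epha1 on chromosome 6, and in each of these pairs, picked out after their values were seen, the neighbours changed in opposite directions from 0 h.

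The ligands that EphA receptors bind had smaller changes than Epha2, all of the called ones downward. Of the 5 ephrin-A genes, none was called higher, 1 (Efna4) was called lower at 24 h and 3 at 48 h against 0 h, and none was called between 24 h and 48 h. Over all genes, 14.2% and 18.5% were called lower in the comparisons with 0 h, and 12.7% from 24 h to 48 h. At an unadjusted p under 0.05 in edgeR, 0 were higher in each comparison. By that measure 3 were lower at 24 h and 3 at 48 h against 0 h, and 1 was lower from 24 h to 48 h. The share of all genes at the unadjusted p was not computed, so these counts cannot be set beside it. DESeq2 called 0 higher in each comparison, 2 lower at 24 h and 3 at 48 h against 0 h, and 0 lower from 24 h to 48 h. Of all genes, it called 4715, 5963 and 3617 in either direction in these comparisons. At 48 h the calls were Efna3 (log2 fold change −1.24, edgeR adjusted p = 0.0367), Efna4 (−0.60, edgeR adjusted p = 0.0405) and Efna5 (−0.84, edgeR adjusted p = 0.0453). These 3 calls and that of Efna4 at 24 h were near the threshold. Each was lost in 7 or 8 of 14 alternatives, including when any library of the later time was left out or either of 2 of the 0 h libraries, with edgeR adjusted p of 0.0655 to 0.152. Efna3 and Efna4 also overlap genes on the opposite strand in 14.1% and 10.5% of their exonic bases. Efna1 had a log2 fold change of −0.25 (interval −0.72 to 0.23) and Efna2 one of −0.44 (interval −0.94 to 0.05) at 48 h, neither called. Of the 3 ephrin-B genes, which encode transmembrane ligands, Efnb1 and Efnb2 fell by 1.24 and 1.29 on the log2 scale by 48 h (edgeR adjusted p = 0.00373 and 0.00031). Efnb3 was not called against 0 h (−0.52, edgeR adjusted p = 0.1). From 24 h to 48 h, Efnb1 and Efnb3 were called lower, with log2 fold changes of −0.28 and −0.38, and the call of Efnb1 was lost in 10 of 14 alternatives and that of Efnb3 in 4, among them without 24 h replicate 3 or 48 h replicate 1.

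**Figure D5:**
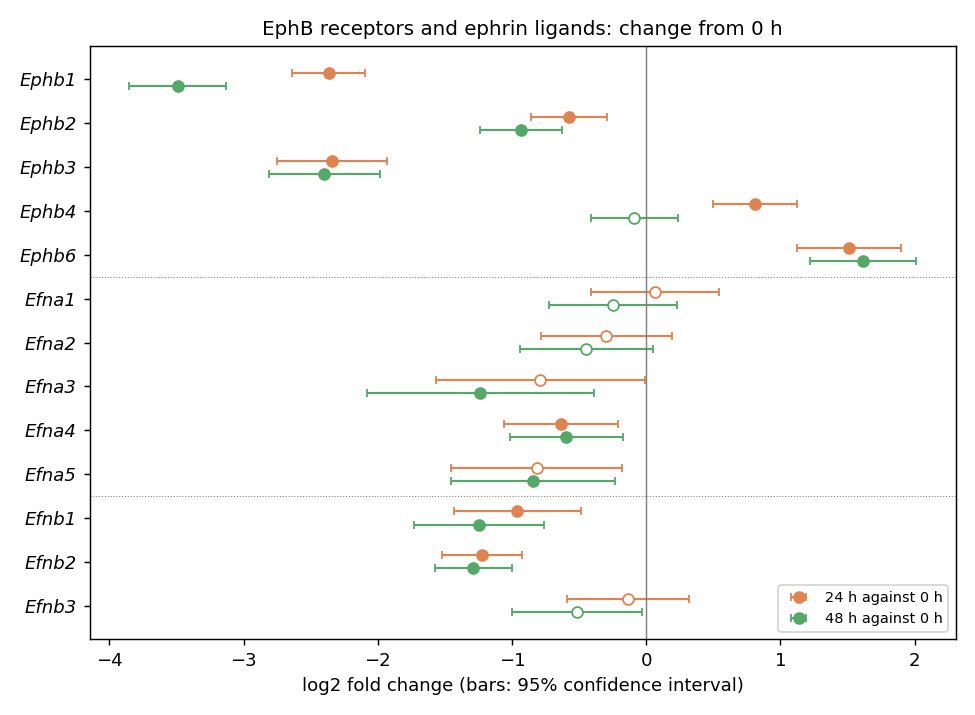
Log2 fold change (x axis) of the EphB receptors and of the ephrin-A and ephrin-B ligands at 24 h and 48 h against 0 h, from edgeR, with 95% confidence intervals as bars. Filled points were called and open points were not. Ephb1 lies farthest to the left at −3.49, Ephb6 lies farthest to the right at 1.62, and no ephrin was called higher.

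The mRNAs of proteins that take part in Eph signalling were examined as a list of 37 genes, of which 36 were tested. At 24 h, 1 was called higher and 8 lower, at 48 h 3 higher and 11 lower against 0 h, and from 24 h to 48 h 2 higher and 5 lower. The median log2 fold change was −0.18, −0.17 and 0.03. Over all genes, 25.5%, 31.6% and 21.3% were called in these comparisons. Arhgef15, a guanine nucleotide exchange factor also known as ephexin-5, fell from 49.6 ± 3.32 CPM (SD, n = 3) at 0 h to 11.9 ± 0.132 at 24 h and 10.5 ± 1.10 after 48 h (log2 fold change −2.25 at 48 h, edgeR adjusted p = 3.02e-05). Chn2, a chimaerin that turns off Rac, fell from 29.6 ± 3.62 to 7.78 ± 0.478 CPM at 48 h (−1.93, edgeR adjusted p = 9.19e-05). Fyn, a Src-family kinase, was lower at both times, with log2 fold changes of −1.17 and −0.96 (edgeR adjusted p = 0.000393 and 0.000895). Src itself was called higher at both, with 0.75 and 0.64 (edgeR adjusted p = 0.013 and 0.025), and Yes1, of the same family, was not called. Inppl1, the lipid phosphatase SHIP2 that binds EPHA2, went from 230 ± 33.4 to 110 ± 9.82 CPM at 48 h (−1.06, edgeR adjusted p = 0.00128). Grb10, an adaptor of receptor tyrosine kinases, was the 1 gene of the list called with a rise of 2-fold or more, from 42.9 ± 2.09 CPM at 0 h to 91.3 ± 5.41 at 48 h (1.09, edgeR adjusted p = 0.000323).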

How the data were processed

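Poly-A RNA of 9 libraries of EGFP-SSCs was sequenced on an Illumina instrument. The authors deposited raw counts of reads per gene, with no normalization. The submitters' processing notes name fastp, HISAT2, featureCounts and GRCm38, and the annotation and strand setting of the counting are not given in the sources used here. Groups followed the labels, and 0 columns belonged to other samples. GENCODE release M21 (GRCm38) gave symbols, exons and positions, and held 45229 of the 46078 genes. The other 849 held at most 0.121% of a library's counts. Promoters came from RefSeq (GRCm38.p6), matched by symbol for all 9 receptors.

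Each pair of time points was tested on its 6 libraries with edgeR 4.0.16 in R 4.3.3, using filterByExpr with a minimum count of 10, TMM and the two-sided quasi-likelihood test, and p was adjusted by Benjamini-Hochberg over all genes tested. CPM are TMM-normalized over the 9 libraries. FPKM divide them by merged exon length. Ratios of Epha2 to Epha4 were compared by exact permutation over libraries. Shared sequence between genes was searched with BLAST 2.17.0 in windows of 75 bases at 97% identity, and matplotlib 3.10.9 drew the figures. The edgeR script was tested first on simulated data with less spread between libraries than these data. That checks the code and not the error rates here. Totals of 16825251 to 22201892 counts limit the precision of genes with few counts.

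Named were all Eph receptors and ephrins, of the 37 signalling genes those called with a log2 fold change of at least 1 in either direction against 0 h, and the 5 genes nearest in profile to Epha2 and to Epha4, of which 1 is not reported here. Src and Yes1 were added beside Fyn, with the main fit alone. The members and lists, cell type markers included, were chosen with earlier results of these data known. Alternatives were DESeq2 1.42.0, its size factors, library size alone, a single fit of all 9 libraries, no filter on low counts, a floor of 10 counts per library, a replicate block, offsets for GC content and length, each library left out, and FPKM with the longest transcript.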

Additional observations from a re-analysis of the deposited data

How the results depend on the processing

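The calls of Epha1, Epha2 and Epha8 against 0 h, and of Epha1 and Epha2 between 24 h and 48 h, kept their direction and their side of the threshold in every alternative run, and Epha4 was called in none. The count of EphA receptors called was 3 at 24 h and 4 to 5 at 48 h against 0 h when a library was left out. Between 24 h and 48 h it was 4, and it dropped to 2 with DESeq2 (which gave no adjusted p for Epha3 and Epha10), with at least 10 counts in every library, with all 9 libraries in 1 fit and with a replicate block, and ranged from 2 to 4 with a library left out, being 4 without 48 h replicate 2 alone. With the filter of 10 counts, Epha3 and Epha10 were not tested. Over all genes, leaving out a library gave 2607 to 6023 calls for 24 h against 0 h (below 3000 without 0 h replicate 2 or any 24 h replicate, against 4494), 3471 to 7116 for 48 h against 0 h (3471 without 48 h replicate 1 and 3624 without replicate 3, against 5602) and 1857 to 4356 for 48 h against 24 h (2044 without 24 h replicate 1, 1857 without 48 h replicate 1 and 2255 without 48 h replicate 3, against 3732). All 9 libraries in 1 fit gave 5751, 6945 and 1043 calls in these comparisons, and GC and length offsets gave 6333, 7505 and 3599. The single fit called 4 EphA receptors at 24 h against 0 h, where the main fit called 3. Epha4, Epha5, Epha7 and Epha10 were not called in the single fit either. The added call was therefore Epha3 or Epha6, which the main fit did not test. The cause of the other differences between these counts was not tested.

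Some changes near 0 turned sign, none of them called. With GC and length offsets these were Efna1 at 24 h (−0.021) and, at 48 h against 0 h, Epha7 (−0.11) and Ephb4 (0.050), and, from 24 h to 48 h, Epha7 (−0.21), Epha8 (0.11), Ephb3 (0.14) and Efna2 (0.092). With library size alone they were Epha4 (0.039) and Ephb4 (0.023) at 48 h against 0 h, and with at least 10 counts in every library Efna5 from 24 h to 48 h (0.0012). With a library left out, the log2 fold change was −0.012 to 0.22 for Efna1 at 24 h, −0.19 to 0.059 for Ephb4 at 48 h against 0 h and, from 24 h to 48 h, −0.045 to 0.11 for Epha7, −0.027 to 0.099 for Efna4, −0.066 to 0.079 for Efna5 and −0.099 to 0.016 for Efnb2. The log2 ratio of Epha2 to Epha4 differed by −3.42 to −3.08 between 24 h and 0 h, −4.63 to −4.35 between 48 h and 0 h and −1.41 to −1.08 between 48 h and 24 h with a library left out.

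Replicate numbers are shared between the time points. Deviations of same-numbered libraries correlated at −0.28 to 0.195, so the numbers were not taken as pairs. With a replicate block, 3007, 4013 and 2497 genes were called in the 3 comparisons. With the longest transcript as length, 21 of the 27 mean FPKM of EphA receptors moved by more than 1 SD, none downward. Epha3, Epha5, Epha6 and Epha10, with at most 30 counts in a library, are limited by depth.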
